A study of Mus musculus with 6 samples.

Results

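A set of 10 genes of transforming growth factor beta (TGF-beta) and bone morphogenetic protein (BMP) signaling was followed in mouse bone marrow: Tgfbr1, Tgfbr2, Bmpr2, Smad1, Smad2, Smad3, Smad4, Smad7, Ski and Skil. They were taken by gene name from a count table of 54532 genes. Each of the 10 matched 1 entry and passed the filter on low counts, as 15015 genes did in all. The samples were freshly isolated femur marrow cells of WT mice, whose strain, age and sex were not given in the sources used here. The 3 control samples had no treatment, and the 3 unloaded samples came after 4 weeks of hindlimb unloading, a model of disuse osteoporosis in which the hind limbs bear no weight. Replicates were not stated to come from separate animals, so the tests measure the spread between these samples, which may be technical.

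TGF-beta binds the type II receptor encoded by Tgfbr2, which recruits and phosphorylates the type I receptor encoded by Tgfbr1. That receptor phosphorylates Smad2 and Smad3, whereas BMP receptors, which include the type II receptor encoded by Bmpr2, phosphorylate Smad1 and its relatives. Both kinds of receptor-activated Smad enter the nucleus with the shared partner Smad4. Smad7 inhibits the activated receptors, and Ski and its relative SnoN, encoded by Skil, are corepressors that hold Smad complexes in check. In bone, TGF-beta released from the matrix couples resorption to formation, and in marrow it restrains the division of blood stem cells.

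Transcripts of 9 of the 10 genes were less abundant on average after unloading, by small amounts, and none passed the test. The lowest estimates were for Smad3 (19.6% lower), Tgfbr2 (18.1% lower) and Tgfbr1 (18.1% lower). Smad7 was the 1 gene with a higher average, by 4.82%. By edgeR's quasi-likelihood test with Benjamini-Hochberg adjustment over all genes, 0 of the 10 were called at an adjusted p under 0.05, and the smallest adjusted p was 0.804. The background was also 0 called genes of 15015 (0.00% in each direction). DESeq2 also called 0 of the 10, and 0.196% of the 13266 genes to which it gave an adjusted p as lower and 0.106% as higher. At an unadjusted p under 0.05 there were 3 of the 10, all lower, where 3.18% of all tested genes were lower and 2.67% higher by that measure. Negative log2 fold changes made up 48.8% of all tested genes. The median log2 fold change was -0.22 over the 10 and 0.00542 over all tested genes. In these bulk samples fewer cells of a type and less RNA per cell cannot be told apart.

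The libraries held 15850986 to 17775506 counts. Unloaded 1 stood apart, at 51.3 on the first principal component against -13.7 to -7.37, with mitochondrial transcripts at 0.439% of its counts against 1.05% to 1.27%. Neutrophil markers summed to 44453 to 51281 CPM in controls and 41406 to 51767 CPM in unloaded libraries, and B cell markers to 548 to 646 CPM in controls and 414 to 603 CPM in unloaded libraries, so transcripts of these marrow cells were present in every library. Of the marker genes listed for other cells, the osteoclast gene Calcr and the muscle gene Myh4 had 0 counts in each library. Other genes of both lists did have counts. The osteoclast list summed to 51.4 to 70.6 CPM in controls and 42.5 to 64.6 CPM in unloaded libraries. The skeletal muscle list summed to 1.14 to 2.11 CPM in controls and 1.05 to 2.36 CPM in unloaded libraries.

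Promoters of the 3 genes whose 95% intervals lay below 0, Tgfbr1, Tgfbr2 and Smad3, are given here so that the start regions of these genes can be compared. They come from RefSeq (GRCm38.p6, the mm10 assembly), run 5′ to 3′ on the gene's strand and reach from 250 bases before the annotated start to 50 after it. Capitals mark the GC box GGGCGG and the GC-rich Smad motif GGCGCC, on either strand, which did not overlap in these windows.
Tgfbr1 (chr4:47352972-47353271, plus strand): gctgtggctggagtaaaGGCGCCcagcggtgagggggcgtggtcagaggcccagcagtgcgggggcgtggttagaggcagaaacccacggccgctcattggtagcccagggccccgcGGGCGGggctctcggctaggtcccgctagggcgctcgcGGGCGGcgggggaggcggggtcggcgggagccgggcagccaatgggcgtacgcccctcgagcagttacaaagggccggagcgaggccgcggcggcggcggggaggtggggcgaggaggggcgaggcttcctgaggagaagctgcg
Tgfbr2 (chr9:116175314-116175613, minus strand): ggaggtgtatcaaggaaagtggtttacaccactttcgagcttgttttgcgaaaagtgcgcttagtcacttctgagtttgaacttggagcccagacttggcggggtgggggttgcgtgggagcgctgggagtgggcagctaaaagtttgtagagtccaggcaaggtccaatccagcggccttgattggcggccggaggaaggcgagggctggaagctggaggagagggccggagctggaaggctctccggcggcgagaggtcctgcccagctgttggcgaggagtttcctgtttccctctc
Smad3 (chr9:63757945-63758244, minus strand): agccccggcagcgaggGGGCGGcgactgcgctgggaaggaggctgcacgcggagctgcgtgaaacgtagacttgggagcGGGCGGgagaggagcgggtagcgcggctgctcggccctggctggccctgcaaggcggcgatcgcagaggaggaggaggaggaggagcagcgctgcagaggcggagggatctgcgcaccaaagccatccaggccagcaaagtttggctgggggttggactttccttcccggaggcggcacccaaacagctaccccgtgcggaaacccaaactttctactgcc

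The windows were rich in G and C, at 74.7% for Tgfbr1, 59% for Tgfbr2 and 67.7% for Smad3. The Tgfbr1 window held GGCGCC once and GGGCGG at 2 places, the Smad3 window held GGGCGG at 2 places, and the Tgfbr2 window held neither. Of all 32851 RefSeq promoters of this length, 11.9% held GGCGCC and 35.7% held GGGCGG. The Smad palindrome GTCTAGAC, on either strand, was in none of the 3 windows and in 0.213% of all promoters, and the Smad box CAGACA was in none of the 3 and in 21.04% of all. RefSeq lists another start for Tgfbr1 further into the gene, whose window held CAGACA once. These matches are letters in a window, and no binding was measured.

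The table's gene lengths allow levels to be compared between genes as TPM, counts divided by gene length and scaled to a common total. By the median over 6 libraries, with the range in parentheses, Smad4 was the most abundant at 57.7 TPM (53.8 to 66.7), followed by Ski at 51.2 TPM (43.2 to 64.5) and Smad2 at 44.5 TPM (34.4 to 46.6). Smad4 was above Ski, and Ski above Smad2, in each of the 6 libraries, although their ranges overlapped. Tgfbr2 at 29.8 TPM (24.8 to 35.6), Smad3 at 28.9 TPM (22.4 to 34.6) and Tgfbr1 at 25.2 TPM (20.7 to 30.2) formed a middle group. Within it the order was less even, with Tgfbr2 above Smad3 in 4 and Smad3 above Tgfbr1 in 5 of 6 libraries, and their ranges overlapped. Smad7 at 16.6 TPM (15 to 20.7) and Skil at 14.4 TPM (11.6 to 17.5) came next, with Smad7 higher in 5 of 6. The BMP-side genes among the 10 were lowest, Smad1 at 6.44 TPM (5.96 to 7.09) and Bmpr2 at 5.496 TPM (4.76 to 7.02), with Smad1 higher in 5 of 6. Gaps without overlap separated Tgfbr1 from Smad7 and Skil from Smad1. The length of Bmpr2 in the table, 17983 bases, was the longest of the 10, and its TPM depends on that length. This order holds within the 10 only. Smad5, the close relative of Smad1, had a median of 15.4 TPM. Of other receptor genes, chosen after their values were seen, Bmpr1a had a median of 7.08 TPM and Acvrl1 of 72.3 TPM.

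**Figure D1:**
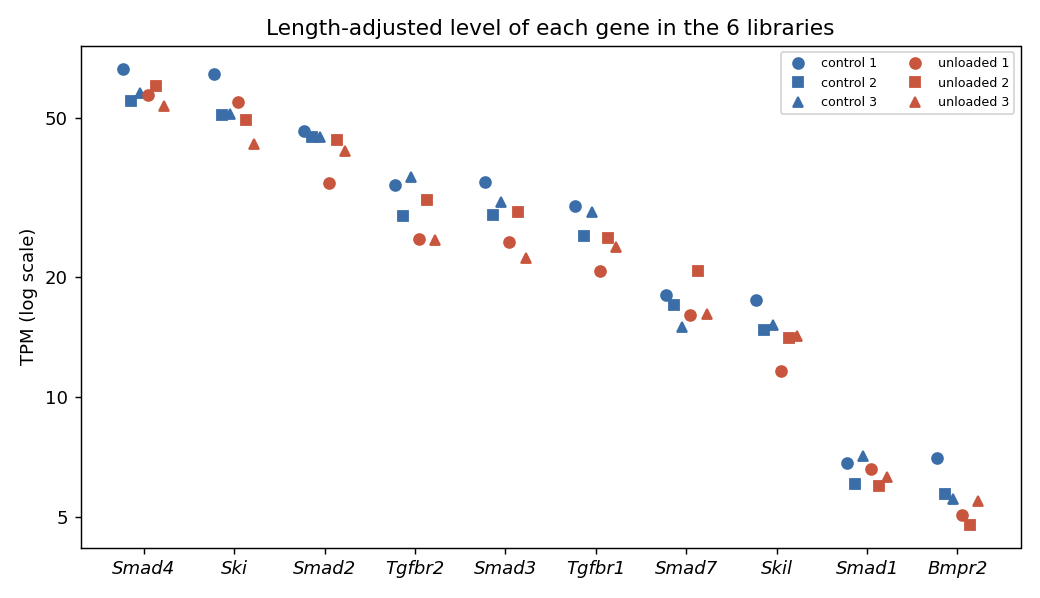
Length-adjusted level (TPM, log scale) of the 10 genes in each library, ordered by the median over the 6 libraries, with control libraries in blue, unloaded libraries in red and the replicate number as the marker shape. Smad4 lies highest, at 53.8 to 66.7 TPM, and Smad1 and Bmpr2 lowest, between 4.76 and 7.09 TPM.

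Among the receptors, Tgfbr1 (ENSMUSG00000007613, chromosome 4, 47353222 to 47414931, mm10) was at 70.6, 62.4 and 66.7 CPM in control 1, 2 and 3, and at 49.3, 57.1 and 57.1 CPM in unloaded 1, 2 and 3, in TMM-normalized counts per fixed library total (CPM). All 3 unloaded values lay below all 3 control values, and unloaded 1 was the lowest. The means were 66.6 ± 4.12 CPM over controls and 54.5 ± 4.51 CPM over unloaded libraries (SD, n = 3). The log2 fold change was -0.29 ± 0.11 (SE) with a 95% interval of -0.53 to -0.047 and an edgeR adjusted p of 0.804. Without unloaded 1 the log2 fold change was -0.22. Tgfbr2 (ENSMUSG00000032440, chromosome 9, 116084293 to 116175360), the ligand-binding partner, was at 100.1, 87.7 and 102 CPM in control 1, 2 and 3, and at 74.04, 88.8 and 74.6 CPM in unloaded 1, 2 and 3. The groups overlapped, since unloaded 2 lay just above control 2, while unloaded 1 and unloaded 3 were below every control. On the log2 scale it was at -0.29 ± 0.11 (SE), with an interval of -0.54 to -0.035 (edgeR adjusted p = 0.804).

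Bmpr2 (ENSMUSG00000067336, chromosome 1, 59763400 to 59879014), the type II receptor of BMPs, was at 45.2, 38.6 and 34.9 CPM in control 1, 2 and 3, and at 33.01, 29.9 and 36.1 CPM in unloaded 1, 2 and 3. Control 1 was well above the rest, and unloaded 3 lay between control 2 and control 3. The log2 fold change was -0.26 ± 0.13 (SE), with an interval of -0.56 to 0.029 (edgeR adjusted p = 0.877), and -0.16 without control 1. The log2 ratio of Tgfbr1 to Tgfbr2 CPM within a library was -0.54 ± 0.069 in controls and -0.53 ± 0.13 after unloading (SD, n = 3). This ratio, which does not depend on library scaling, gave an exact two-sided permutation p of 1, where 3 against 3 cannot go below 0.1.

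**Figure D2:**
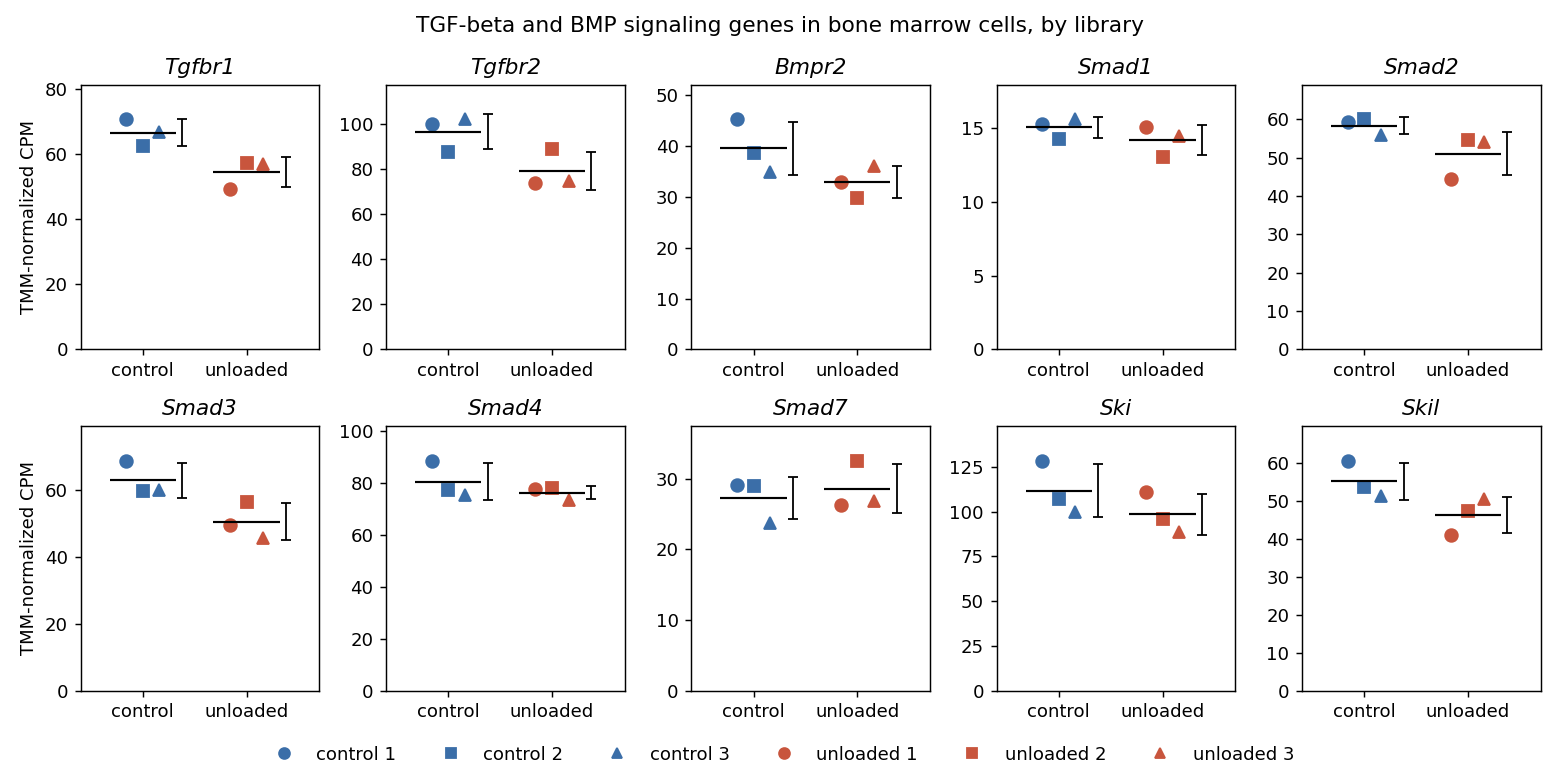
TMM-normalized CPM of the 10 genes in each library, 1 panel per gene with an axis from 0, horizontal lines at the group mean of 3 libraries and bars of 1 SD beside it. Tgfbr1, Smad2, Smad3 and Skil are the 4 genes whose unloaded points (red) all lie below the control points (blue).

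Smad2 and Smad3 carry the TGF-beta signal. Smad3 (ENSMUSG00000032402, chromosome 9, 63646767 to 63757994) was at 68.6, 59.7 and 59.8 CPM in control 1, 2 and 3, and at 49.4, 56.3 and 45.6 CPM in unloaded 1, 2 and 3. Every unloaded value was below every control value, with unloaded 3 the lowest and control 1 the highest. The means were 62.7 ± 5.12 CPM over controls and 50.4 ± 5.46 CPM over unloaded libraries (SD, n = 3), the log2 fold change was -0.31 ± 0.12 (SE) with an interval of -0.57 to -0.055, and the edgeR adjusted p was 0.804. Smad3 kept a negative value with each library left out, from -0.41 without unloaded 2 to -0.25 without control 1. Smad2 (ENSMUSG00000024563, chromosome 18, 76241580 to 76305731) was at 59.2, 59.98 and 55.8 CPM in control 1, 2 and 3, and at 44.5, 54.6 and 54.2 CPM in unloaded 1, 2 and 3. The groups did not overlap, but unloaded 2 and unloaded 3 lay within 2 CPM of control 3, and unloaded 1 alone was much lower. Its log2 fold change of -0.19 ± 0.11 (SE; interval -0.44 to 0.061, edgeR adjusted p = 0.8905) was -0.10 without unloaded 1.

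Smad1 (ENSMUSG00000031681, chromosome 8, 79338395 to 79399518), a BMP-activated Smad and the member with the fewest reads (221 to 267 counts), was at 15.3, 14.2 and 15.6 CPM in control 1, 2 and 3, and at 15.04, 13.02 and 14.4 CPM in unloaded 1, 2 and 3. The groups overlapped, with unloaded 2 below all controls and control 1 and control 3 above all unloaded libraries. On the log2 scale Smad1 was at -0.085 ± 0.14 (SE), with an interval of -0.40 to 0.23 (edgeR adjusted p = 0.956), -0.13 without unloaded 1 and -0.031 without unloaded 2. The log2 ratio of Smad2 to Smad3 CPM was -0.10 ± 0.11 in controls and 0.018 ± 0.21 after unloading (SD, n = 3; exact two-sided permutation p = 0.5). Unloaded 3 had the highest ratio, 0.25, and control 1 the lowest, -0.21. The difference between group means, 0.12, was 0.0040 without unloaded 3, 0.065 without control 1 and 0.20 without unloaded 1.

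Smad4 (ENSMUSG00000024515, chromosome 18, 73639009 to 73703780), the common partner, was at 88.6, 77.5 and 75.5 CPM in control 1, 2 and 3, and at 77.5, 77.9 and 73.4 CPM in unloaded 1, 2 and 3. Control 1 was the high value, and the other 5 libraries lay between 73.4 and 77.9 CPM. The log2 fold change was -0.078 ± 0.10 (SE) with an interval of -0.31 to 0.15 (edgeR adjusted p = 0.936), and -0.0040 without control 1. Smad7 (ENSMUSG00000025880, chromosome 18, 75367529 to 75395935), the inhibitory Smad that TGF-beta itself induces, was at 29.1, 28.9 and 23.8 CPM in control 1, 2 and 3, and at 26.3, 32.6 and 26.9 CPM in unloaded 1, 2 and 3. Its highest library was unloaded 2 and its lowest control 3, and the groups overlapped. The log2 fold change of 0.068 ± 0.14 (SE; interval -0.24 to 0.37, edgeR adjusted p = 0.961) turned to -0.040 without unloaded 2 and -0.022 without control 3, and was 0.12 without unloaded 1.

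Of the corepressors, Skil (ENSMUSG00000027660, chromosome 3, 31095058 to 31122577), another gene that TGF-beta induces, was at 60.7, 53.6 and 51.4 CPM in control 1, 2 and 3, and at 41.03, 47.4 and 50.6 CPM in unloaded 1, 2 and 3. The groups did not overlap, though unloaded 3 lay within 1 CPM of control 3 and unloaded 1 was the lowest. The log2 fold change was -0.25 ± 0.12 (SE) with an interval of -0.52 to 0.010 (edgeR adjusted p = 0.859), and -0.17 without unloaded 1. Ski (ENSMUSG00000029050, chromosome 4, 155154075 to 155222592) was at 129, 107 and 100.1 CPM in control 1, 2 and 3, and at 111, 96.03 and 88.4 CPM in unloaded 1, 2 and 3. Here unloaded 1 was the second highest of the 6 libraries, unlike its place for Skil, and the groups overlapped. The log2 fold change was -0.18 ± 0.13 (SE; interval -0.47 to 0.099, edgeR adjusted p = 0.896), -0.28 without unloaded 1 and -0.072 without control 1.

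The log2 ratio of Skil to Ski CPM was -1.01 ± 0.063 in controls and -1.09 ± 0.32 after unloading (SD, n = 3; exact two-sided permutation p = 0.8). Unloaded 1 at -1.43 and unloaded 3 at -0.80 lay on either side of all 3 controls. Over the 3 gene ratios computed, every Benjamini-Hochberg adjusted permutation p was 1.

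**Figure D3:**
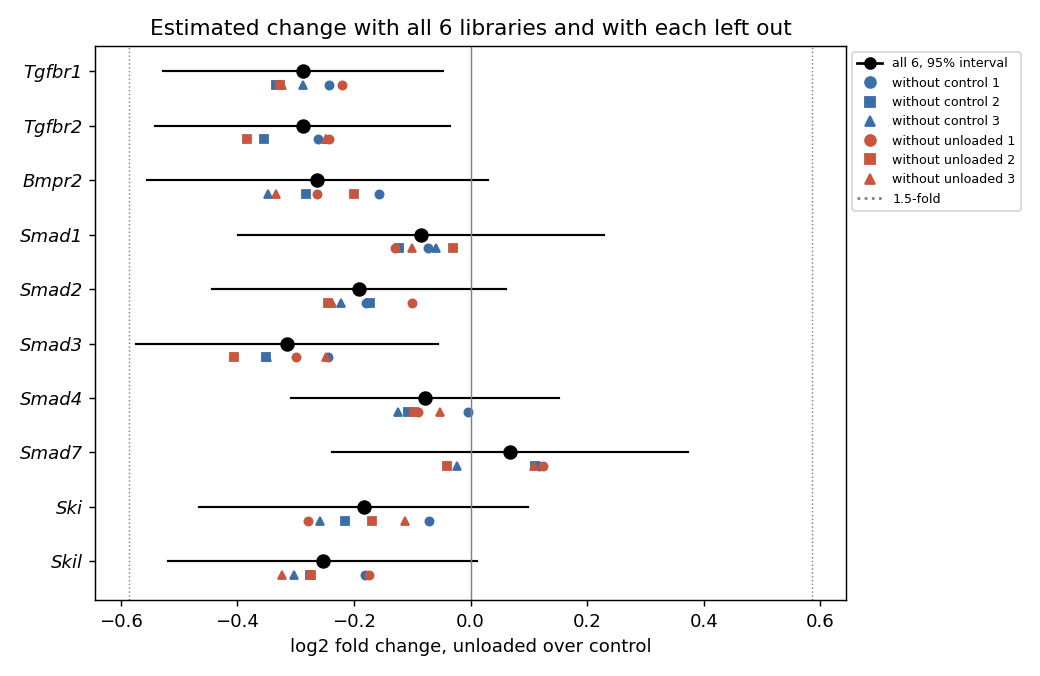
Log2 fold change of unloaded over control for the 10 genes with all 6 libraries (black points, bars of the 95% interval) and with each library left out in turn (coloured points below), with dotted lines at a 1.5-fold change. No interval reaches a 1.5-fold change, and the lowest bound is -0.57, for Smad3.

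In the edgeR fit of all 6 libraries, the intervals bound how large a change the data leave room for. All 10 of the 95% intervals lay within a 1.5-fold change in either direction, from 0.672-fold at the lower bound of Smad3 to 1.29-fold at the upper bound of Smad7. These are intervals for single genes, with no correction for reading 10 of them. Intervals of the alternative fits are not given here, and some of those fits had larger SEs. Smad3 was at -0.31 ± 0.139 (SE) by DESeq2, against an SE of 0.118 by edgeR, and at -0.41 ± 0.131 by edgeR without unloaded 2. A 95% interval built the same way for Smad3 without unloaded 2 would pass a 1.5-fold decrease. The 1.5-fold limit is therefore not shown to hold in the alternative fits, and it fails in that one. In the edgeR fit of all 6 libraries the intervals of 3 genes, Tgfbr1, Tgfbr2 and Smad3, lay wholly below no change. All 3 unloaded values were below all 3 control values for Tgfbr1, Smad2, Smad3 and Skil, 4 of the 10, and for 6.40% of all tested genes. The reverse order was seen for 0 of the 10 and 5.46% of all tested genes. The members vary together across libraries, so these 4 are not separate observations.

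Control 1 was the highest library for 6 of the 10 genes, Tgfbr1, Bmpr2, Smad3, Smad4, Ski and Skil, while unloaded 1 was the lowest for 4, Tgfbr1, Tgfbr2, Smad2 and Skil. On a log2 scale control 1 exceeded the 6-library mean by 0.33 for Bmpr2, 0.30 for Ski and 0.29 for Smad3. Unloaded 1 was below it by about as much for Skil (-0.30), Smad2 (-0.29) and Tgfbr1 (-0.29). The median log2 fold change of the 10 was -0.17 without control 1 and -0.20 without unloaded 1. In both cases 9 of 10 values were negative, where 49.5% of tested genes were without unloaded 1.

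**Figure D4:**
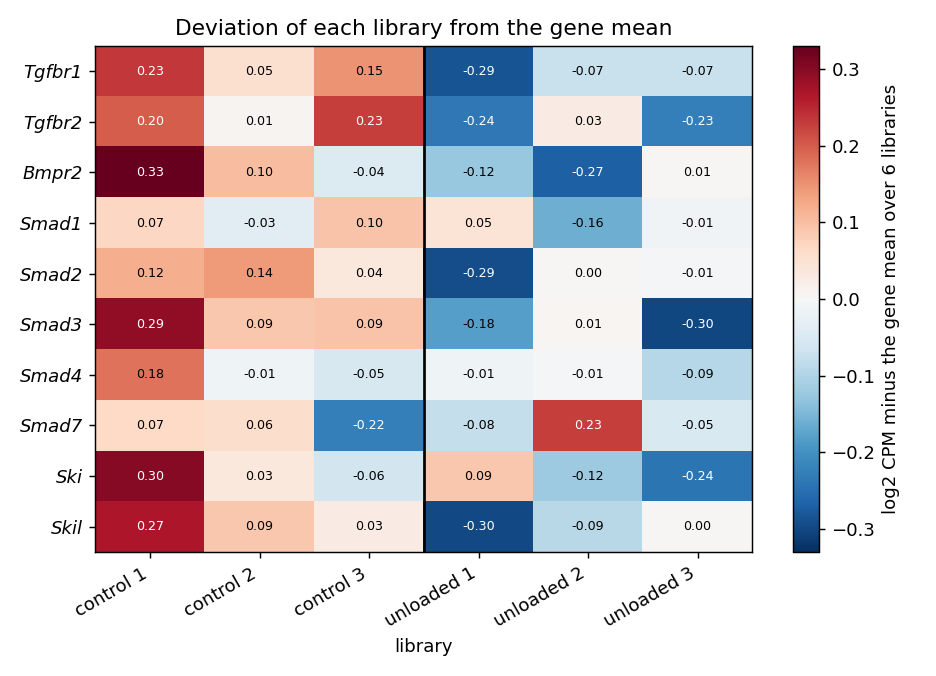
Log2 CPM of each library minus the gene's mean over the 6 libraries, with genes as rows, libraries as columns and the value in each cell, red above and blue below the mean. Control 1 is above the mean in all 10 rows, and unloaded 1 is below it in all but Smad1 and Ski.

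Summed levels of marker lists in the same libraries are given beside these values, and 0 of the listed genes were called by edgeR. Immediate early genes such as Fos, Egr1 and Junb, which respond within minutes to stimulation or handling, had negative log2 fold changes in 7 of 7 listed members. Their summed level was 2590.2 to 4163 CPM in controls and 1540.0 to 2514 CPM in unloaded libraries, with control 1 the highest and unloaded 1 the lowest, the same extremes as for Tgfbr1 and Skil. Megakaryocyte and platelet markers had negative values in 5 of 5 tested members of 6 listed, with sums of 93.97 to 99.7 CPM in controls and 68.5 to 83.9 CPM in unloaded libraries. Erythroid markers were positive in 4 of 5, with sums of 2151 to 2502 CPM in controls and 2650.0 to 3364 CPM in unloaded libraries. T cell markers were positive in 7 of 7, with sums of 49.8 to 66.2 CPM in controls and 60.5 to 98.2 CPM in unloaded libraries that overlapped. The B cell markers had negative values in 6 of 6, with a median log2 fold change of -0.22 beside -0.22 for the 10 genes. Neutrophil markers were negative in 5 of 6 (median -0.068) and monocyte markers in 3 of 5 (median -0.21). The monocyte sums were 1928 to 2020 CPM in controls and 1763 to 2179 CPM in unloaded libraries, with unloaded 1 and unloaded 3 above every control. Endothelial markers were negative in 4 of 4 tested members, with sums of 65.7 to 73.2 CPM in controls and 53.7 to 73.6 CPM in unloaded libraries, and stromal and osteoblast markers in 4 of 6, with sums of 108 to 250.3 CPM in controls and 77.8 to 166 CPM in unloaded libraries. The part of these in the values of the 10 genes was not tested.

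Pairs of the 10 genes were compared across libraries as a description, over 6 libraries that share their scaling. Pearson's r of log2 CPM was positive in 40 of 45 pairs, with a median of 0.51, or 0.66 over the 5 libraries without unloaded 1. The same share and median over pairs of all tested genes were not computed, so how particular these values are to the 10 is not known. Of the 5 negative pairs 4 involved Smad7. Among the pairs with high values were Tgfbr1 with Skil (0.93) and Tgfbr2 with Smad3 (0.90). Smad1 and Smad7 ran opposite to each other (-0.82, and -0.81 without unloaded 1). Ski and Skil were at 0.37 over 6 libraries and 0.89 over the 5. The protein-coding genes whose profile was most like the mean standardized profile of the 10 were Ttc9c (0.994), Cdk13 (0.993), Plekhb2 (0.985), Tshz1 (0.981) and Wasf2 (0.977), by Pearson's r over 6 libraries, and their r was 0.982 to 0.993 without unloaded 1. They are the top 5 of all tested protein-coding genes, so high values are found by the search itself.

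The rest of the pathway was read from a list of 106 other genes grouped by role, of which 74 were tested. By edgeR 0 of the 74 were called, against 0.00% of all genes, and 5 were at an unadjusted p under 0.05, where 3.18% of all tested genes were lower and 2.67% higher. Their log2 fold changes were negative for 43 and positive for 31, with a median of -0.048, nearer to 0 than that of the 10 genes. All 3 unloaded values were below all controls for 9 and above them for 3 of the 74, against 6.40% and 5.46% of all tested genes. The genes named by role were therefore not called, and their values are descriptions.

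Of 24 ligand genes 11 were tested, 5 lower and 6 higher on average. Tgfb1, the main TGF-beta ligand of blood cells, was at 342 ± 32.4 CPM over controls and 302 ± 16.9 CPM over unloaded libraries (SD, n = 3), with overlapping groups and a log2 fold change of -0.18 ± 0.11 (SE). Tgfb2 and Tgfb3 were too low to test, at 0 to 5 and 4 to 10 counts per library. Bmp7 was low but separated, at 0.4003, 0.663 and 0.4698 CPM in control 1, 2 and 3, and at 0.956, 0.943 and 0.864 CPM in unloaded 1, 2 and 3 (log2 0.84, SE 0.42, edgeR adjusted p = 0.877). Gdf3, another family ligand, was at 2.103 CPM in unloaded 1 and 5.99 to 6.87 CPM in the other 5.

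Of 11 genes that store or activate latent TGF-beta 9 were tested, 5 lower and 4 higher. Thbs1, which encodes the activator thrombospondin-1, was at 267, 143 and 231 CPM in control 1, 2 and 3, and at 637, 353 and 246 CPM in unloaded 1, 2 and 3. Unloaded 1 was the high value, and unloaded 3 lay inside the control range. Its log2 fold change was 0.94 ± 0.31 (SE), or 0.49 without unloaded 1 (edgeR adjusted p = 0.801, and 0.532 without it). Furin, the protease that cleaves the TGF-beta precursor, was below all controls in all 3 unloaded libraries, at 182 ± 11.7 CPM over controls and 157 ± 3.22 CPM over unloaded libraries (SD, n = 3; log2 -0.21, SE 0.098). Itgav, the alpha-V integrin subunit of TGF-beta-activating integrins, was at 16.8 CPM in unloaded 1 and 31.1 to 39.5 CPM in the others.

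Of 13 secreted inhibitors 5 were tested, and the BMP antagonist genes Nog, Chrd and Grem1 were too low. Twsg1, a BMP-binding modulator, was at 35.6, 37.2 and 37 CPM in control 1, 2 and 3, and at 15.8, 33.3 and 30 CPM in unloaded 1, 2 and 3. The groups did not overlap, and unloaded 1 was far below the rest, so its log2 fold change of -0.47 ± 0.22 (SE) was -0.21 without that library. Lefty1 (log2 0.29, SE 0.29) and Fstl1 (log2 -0.039, SE 0.34) overlapped between groups. With 1 library left out Lefty1 was at 0.057 without control 2, and Fstl1 ran from -0.24 without unloaded 1 to 0.19 without unloaded 3.

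Among 11 tested of 14 further receptors and co-receptors, 7 lower and 4 higher, the activin type II receptor gene Acvr2a was at 5.78, 6.99 and 6.81 CPM in control 1, 2 and 3, and at 9.49, 8.13 and 8.58 CPM in unloaded 1, 2 and 3. All unloaded values lay above all controls, in the direction opposite to the TGF-beta receptors (log2 0.42, SE 0.19, edgeR adjusted p = 0.844). Cd109, a TGF-beta co-receptor that limits signaling, was near the detection limit at 1.21 ± 0.147 CPM over controls and 0.486 ± 0.262 CPM over unloaded libraries (SD, n = 3; log2 -1.30, SE 0.47), with 4 to 24 counts per library. The pseudoreceptor gene Bambi was at 5.34 ± 0.716 CPM over controls and 3.95 ± 0.319 CPM over unloaded libraries (SD, n = 3; log2 -0.43, SE 0.22). For both, all unloaded values were below all controls. The BMP type I receptor gene Bmpr1a, the usual partner of Bmpr2, was at 15.3 ± 3.96 CPM over controls and 15.1 ± 2.86 CPM over unloaded libraries (SD, n = 3). Bmpr1b had 0 counts in each library, which puts an upper bound of about 0.191 CPM on its level. That bound is 3 counts in the shallowest library and covers counting error only. Bmpr1a was chosen after its values were seen.

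Smad5, the close relative of Smad1, was at 42.6 ± 3.22 CPM over controls and 40.1 ± 1.396 CPM over unloaded libraries (SD, n = 3; log2 -0.087, SE 0.11), and the BMP-induced inhibitor Smad6 was at 1.28 ± 0.404 CPM over controls and 1.17 ± 0.257 CPM over unloaded libraries (SD, n = 3; log2 -0.12, SE 0.38). Both overlapped between groups. Smad5 was at -0.025 without control 1, and Smad6 ran from -0.33 without control 3 and -0.31 without unloaded 1 to 0.13 without control 2. Of 12 partners and corepressors 11 were tested, 8 lower and 3 higher. Zeb2, a Smad-binding repressor, was at 158, 138 and 131 CPM in control 1, 2 and 3, and at 90.99, 125 and 129 CPM in unloaded 1, 2 and 3, lowest in unloaded 1, with a log2 fold change of -0.30 ± 0.14 (SE), or -0.16 without that library. The acetyltransferase gene Ep300 (log2 -0.24, SE 0.13) was highest in control 1, as 6 of the 10 genes were, and was at -0.10 without it, while Foxh1 (log2 -0.79, SE 0.43) had 6 to 19 counts per library.

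The 10 ubiquitin ligases and receptor regulators were all tested, 4 lower and 6 higher. Rnf111, which encodes Arkadia, a ligase that degrades Smad7, Ski and SnoN, was at 97.97, 89.2 and 93.9 CPM in control 1, 2 and 3, and at 60.2, 87.96 and 85.1 CPM in unloaded 1, 2 and 3 (log2 -0.27, SE 0.14, or -0.11 without unloaded 1). Smurf2, a ligase that Smad7 brings to the receptors, was at 54.96 ± 3.52 CPM over controls and 48.8 ± 0.756 CPM over unloaded libraries (SD, n = 3; log2 -0.17, SE 0.10). In both genes all unloaded values were below all controls. Fkbp1a, whose product binds type I receptors, was at 0.10 ± 0.10 (SE) on the log2 scale.

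Of 13 response genes 9 were tested, 5 lower and 4 higher, with no shared direction in their values. Tgfbi was at 321, 381 and 367 CPM in control 1, 2 and 3, and at 677, 365 and 451 CPM in unloaded 1, 2 and 3, led by unloaded 1, with a log2 fold change of 0.48 ± 0.19 (SE), or 0.20 without it. Cdkn1a, a cell cycle inhibitor gene, was at 12.9, 10.8 and 8.81 CPM in control 1, 2 and 3, and at 27.02, 13.02 and 15.4 CPM in unloaded 1, 2 and 3. All unloaded values were above all controls, though unloaded 2 only just, and the log2 fold change was 0.77 ± 0.26 (SE), or 0.39 without unloaded 1 (edgeR adjusted p = 0.801). Both genes have many inducers other than TGF-beta. The BMP target gene Id3 was at 12.4 ± 1.61 CPM over controls and 9.74 ± 1.68 CPM over unloaded libraries (SD, n = 3; log2 -0.35, SE 0.19), while Id1, the commonest BMP readout, was at 24.7 ± 3.097 CPM over controls and 25.4 ± 3.46 CPM over unloaded libraries (SD, n = 3; log2 0.037, SE 0.15) and was chosen after its values were seen. Id1 ran from -0.074 without unloaded 3 to 0.12 without unloaded 2, and Id3 was at -0.23 without unloaded 3. Of 6 genes of the TAK1 arm, which runs without Smads, 4 lower and 2 higher, the lowest were Xiap (log2 -0.19, SE 0.12), Traf6 (log2 -0.12, SE 0.12) and Map3k7 (log2 -0.11, SE 0.11). Without unloaded 1 these were at -0.077, -0.033 and -0.027.

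**Figure D5:**
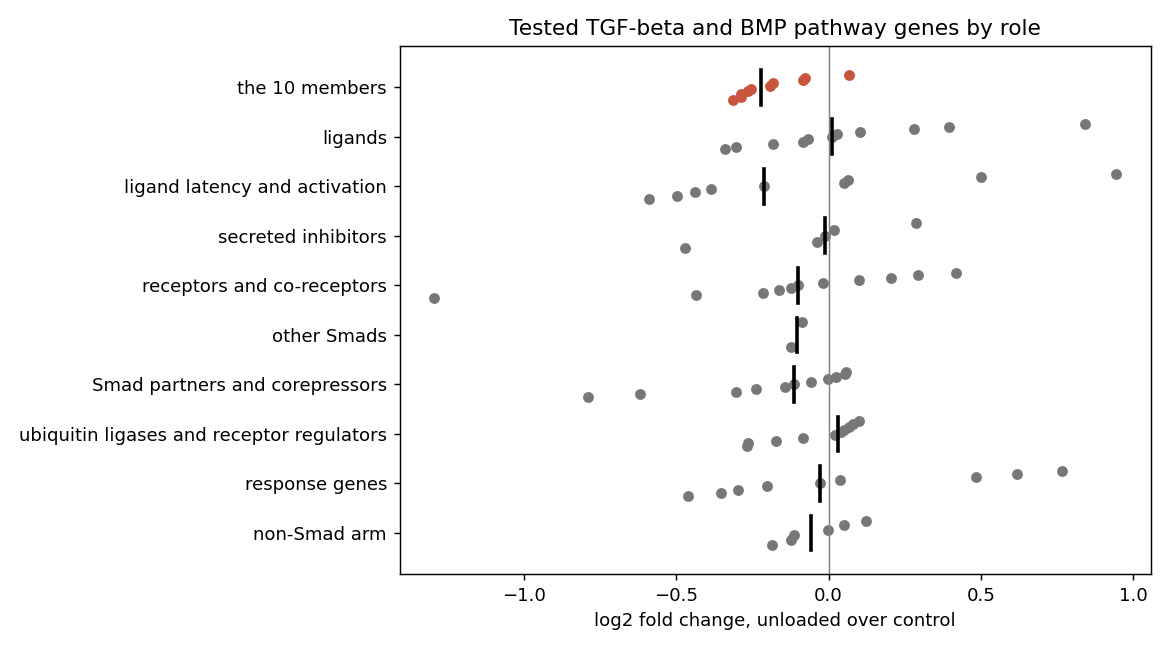
Log2 fold change of unloaded over control for the 10 genes (red) and the 74 other tested pathway genes (grey) by role, with black bars at the median of each row. The 10 genes have a median of -0.22, and the roles have medians from -0.21 to 0.032.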

How the data were processed

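Total RNA of 6 marrow samples was sequenced from libraries made with an NEBNext Ultra kit, per the labels' protocols. The submitters' processing notes name CASAVA, HISAT2 2.0.5, featureCounts 1.5.0-p3 and mm10. The annotation, strand setting and handling of multi-mapped reads are not given in these sources. The deposited table holds raw read counts per gene, with no normalization, and gene lengths as the authors listed them. A single other entry, with at most 3 counts, overlaps a member (Bmpr2).

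Samples were grouped by title. Genes passing edgeR's filterByExpr were scaled by TMM and compared with glmQLFit and glmQLFTest (edgeR 4.0.16, R 4.3.3), all 6 libraries in 1 fit and no covariate. Calls were at a Benjamini-Hochberg adjusted p under 0.05 over 15015 genes. SE is the log2 fold change over the square root of F, and 95% intervals use the test's degrees of freedom. TPM divided counts by the deposited length. Log2 CPM for ratios and correlations used a prior count of 2. Ratios were compared by exact permutation. The script was tested on simulated counts.

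The members and lists were chosen with earlier results of these data known. Ccn2 was read under its older symbol Ctgf, and Hgs, with 2 overlapping entries, was not used. Pathway genes named were up to 3 per role with the smallest p, with other genes marked as such or needed as defining markers. The 5 genes of like pattern were protein-coding ones with the highest r. Promoters of Smad2, Smad4 and Smad7 were not used here, and that of Skil had no entry. DESeq2 1.42.0, RLE and upper-quartile scaling, other filters, each library left out and a replicate block were alternatives, and DESeq2 without unloaded 1 was added after seeing the data. All pairs of libraries differed by more than sampling noise (chi-square per degree of freedom 7.199 to 38.3).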

Additional observations from a re-analysis of the deposited data

How the results depend on the processing

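None of the 10 genes was called under any of the 13 alternatives, where the smallest adjusted p of a member ranged from 0.456 (edgeR without unloaded 1) to 0.999 (without control 1). Of 130 values 128 kept their sign, and the 2 that did not were Smad7 at -0.022 without control 3 and -0.040 without unloaded 2, in a range up to 0.12 without unloaded 1. The count of called genes over the whole table was 0 with RLE scaling, upper-quartile scaling and the 1 CPM filter, and 40 with DESeq2. It was 183 of 27287 tested genes with no low-count filter, and 73 with DESeq2 without unloaded 1. With each library left out it ranged from 0 to 5, the 5 being without unloaded 1. Among the 106 other pathway genes listed, 0 were called except with no low-count filter, where 3 were, beside the 183 of 27287 genes. They were Thbs1, Cdkn1a and Tgfbi (edgeR adjusted p = 7.3e-10, 0.0149 and 0.0317), each highest in unloaded 1. How many of the 106 that fit tested is not given here. The difference in the log2 ratio of Tgfbr1 to Tgfbr2, 0.00082 with all libraries, was -0.039 without control 3 and -0.074 without unloaded 3, and at most 0.051 without unloaded 2. That of Skil to Ski, -0.074, was 0.10 without unloaded 1 and as low as -0.22 without unloaded 3. That of Smad2 to Smad3, 0.12, ranged from 0.0040 without unloaded 3 to 0.20 without unloaded 1. The cause of these changes was not tested. The labels share replicate numbers, but same-numbered samples did not deviate together (r = 0.031, -0.063 and 0.019), and not every sample correlated best with its own number. A replicate block called 1 gene, Stfa1, and no member (smallest adjusted p = 0.941). With 3 libraries a group, a difference smaller than about the distance from an estimate to the end of its 95% interval could not be told from 0 at an unadjusted p of 0.05. A call at an adjusted p under 0.05 needed a larger difference. The interval of Smad3, -0.57 to -0.055, excluded 0, and its edgeR adjusted p was 0.804.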
